A study of Mus musculus with 4 samples.

Results

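Genes that give intestinal epithelium its identity were examined in the open chromatin of mouse lung tumours. The 9 members were chosen by name: Cdx1, Cdx2, Isx, Lgr5, Vil1, Fabp1, Fabp2, Cdh17 and Cftr. Open regions on the gene or up to 10 kb away in mm10 were assigned to a member, and these were 18 of the 61972 regions of the series. All 9 genes were found among 21887 protein-coding genes, and 8 of them had a region. The samples were snap-frozen lung tumour tissue of 4 mice of strain C57B6J, aged 55 weeks, and open chromatin was mapped with ATAC-seq, where a transposase cuts accessible DNA. Whether the tissue of a mouse was 1 tumour or several was not stated, and each library is called a tumour here. The KrasLA1 group (genotype KrasLA1/+) had a female (replicate 1) and a male (replicate 2), and so did the KrasLA1;Dicer1S2D group (genotype KrasLA1/+;Dicer1S2D/+). KrasLA1, which every mouse carried, is a latent allele that becomes oncogenic after spontaneous recombination, and Dicer1S2D is an allele for a phosphomimetic form of the microRNA-processing enzyme, of which these mice had 1 copy. Sex and replicate number divide the samples in the same way and cannot be told apart. The deposited values are peak positions, so each library has a peak of some width or none, and the read depth behind a peak is unknown. Where values come in pairs for a group, replicate 1 is given first.

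Cdx1 and Cdx2 are homeobox factors that specify and maintain intestinal epithelium, and Isx is a further homeobox factor of that tissue. Lgr5 is the R-spondin receptor that marks crypt stem cells. Vil1 (villin) bundles actin in the microvilli of absorptive cells, Fabp1 and Fabp2 bind fatty acids inside enterocytes, Cdh17 is the liver-intestine cadherin, and Cftr is an epithelial chloride channel. Fabp1 is also a liver gene and Cftr is also used in the airway, so neither is restricted to the gut. Lung adenocarcinomas that lose the lung factor Nkx2-1 are known to take on gastrointestinal programmes, and the title of the series concerns gastric fate.

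Genes of lung epithelium had called start peaks in these libraries. A peak within 2 kb of a start site was called in all 4 libraries at 7 of 8 genes of alveolar type 2 cells, among them Nkx2-1, Sftpc and Sftpb, and at 4 of 4 epithelial genes (Epcam, Cdh1, Krt8, Krt18). The eighth type 2 gene, Napsa, had it in 3 libraries. Over all autosomal protein-coding genes, 53.8% had such a peak in all 4 libraries, as did 80% of 10 housekeeping genes. For genes with no matched start, such as Sftpc, Napsa, Cdh1 and Col1a1, a peak within 2 kb of either gene end was counted. Beside these shared start peaks, 2 of the 8 type 2 genes (Nkx2-1 and Slc34a2) and 1 of the 4 epithelial genes (Cdh1) had 1 region each with peaks in the 2 KrasLA1 tumours alone, as 4.87% of autosomal protein-coding genes with a region did. Markers of other cells also had regions. The 4 leukocyte genes had 8, 10, 10 and 7 of 13 regions called in KrasLA1 replicates 1 and 2 and then KrasLA1;Dicer1S2D replicates 1 and 2. Among them Cd68 had a start peak in every library, Ptprc in KrasLA1 replicate 2 only and Cd79a in none, and Cd3e had no region. Of the endothelial genes, Pecam1 had 5 regions, 4 of them called in all 4 libraries, but no start peak in any library. Cdh5 had no region. The fibroblast genes Col1a1 and Pdgfra had 4 and 1 regions, and Col1a1 had a start peak in every library but Pdgfra in none. The part of these cells in the member calls was not tested. In such bulk tissue, fewer cells with an open site and a less open site in each cell cannot be told apart. Libraries held 34767 to 50282 peaks.

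Reference promoter sequences of 4 members are shown because their starts differ in whether a peak lay over them and in CG content. The RefSeq promoter table (build GRCm38.p6, with the chromosomes of mm10) held 6 of the 9 members. Cdx1, Lgr5 and Cdh17 were not matched. Each line gives the 250 bases before the start, 5′ to 3′ on the gene's strand, and capitals mark motif matches.
Vil1, chr1:74409134-74409383, plus strand: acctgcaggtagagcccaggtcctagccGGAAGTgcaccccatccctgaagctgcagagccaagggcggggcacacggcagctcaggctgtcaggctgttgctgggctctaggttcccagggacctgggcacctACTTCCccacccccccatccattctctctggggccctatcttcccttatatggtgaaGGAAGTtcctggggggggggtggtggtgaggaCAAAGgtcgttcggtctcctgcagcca
Cftr, chr6:18170437-18170686, plus strand: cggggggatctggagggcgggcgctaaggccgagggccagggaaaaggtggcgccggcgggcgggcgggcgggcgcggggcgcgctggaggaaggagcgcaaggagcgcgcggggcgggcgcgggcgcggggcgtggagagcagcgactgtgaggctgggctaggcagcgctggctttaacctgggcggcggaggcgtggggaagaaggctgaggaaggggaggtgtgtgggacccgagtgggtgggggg
Cdx2, chr5:147307250-147307499, minus strand: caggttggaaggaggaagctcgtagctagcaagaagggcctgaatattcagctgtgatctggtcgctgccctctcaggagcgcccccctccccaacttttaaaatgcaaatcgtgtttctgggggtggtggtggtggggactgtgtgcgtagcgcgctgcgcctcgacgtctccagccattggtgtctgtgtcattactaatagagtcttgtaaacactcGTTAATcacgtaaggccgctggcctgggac
Fabp1, chr6:71199629-71199878, plus strand: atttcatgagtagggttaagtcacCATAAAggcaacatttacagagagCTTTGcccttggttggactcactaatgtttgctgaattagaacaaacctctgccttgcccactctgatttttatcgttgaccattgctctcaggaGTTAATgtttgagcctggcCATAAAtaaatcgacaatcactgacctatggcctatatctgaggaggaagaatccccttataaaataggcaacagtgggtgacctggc

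The motifs searched on both strands were TTTATG for CDX factors, AGATAA for GATA factors, CAAAG for HNF4, GTTAAT for HNF1, TGANTCA for AP-1 and GGAAGT for ETS factors, and no matches overlapped. The CDX motif was found in the Fabp1 promoter only among the 6, at 226 and 88 bases before the start, and 8.89% of 20085 promoters of autosomal protein-coding genes hold it in the same window. CAAAG, in 46.3% of all promoters, occurred once each in Vil1, Fabp1, Fabp2 and Isx. GTTAAT, in 5.84%, occurred in Cdx2 at 30 bases and in Fabp1 at 107 bases before the start. The ETS motif, in 20.5%, had 3 matches in Vil1 and 2 in Isx. AGATAA (8.72% of all promoters) and TGANTCA (6.18%) had 0 matches in these windows, and the Cftr window had 0 of any motif. A match describes the letters and not a bound site.

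Few regions of the series followed the genotype, and no member region did. Of the 18 regions, 0 had peaks in the 2 KrasLA1;Dicer1S2D tumours but in no KrasLA1 tumour, a pattern that 0.596% of the 60713 autosomal regions had. In the reverse direction it was again 0, against 1.42% of autosomal regions. Among 15882 autosomal protein-coding genes with a region, 1.78% had a region of the first kind and 4.87% of the second. Regions called in every library numbered 5 of 18 (27.8%, against 43.5% of autosomal regions), and 8 were called in 1 library only (44.4%, against 27.7%). The median width of the 18 regions was 422 bp, with a range of 170 to 808 bp, against a median of 484 bp for autosomal regions.

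**Figure D1:**
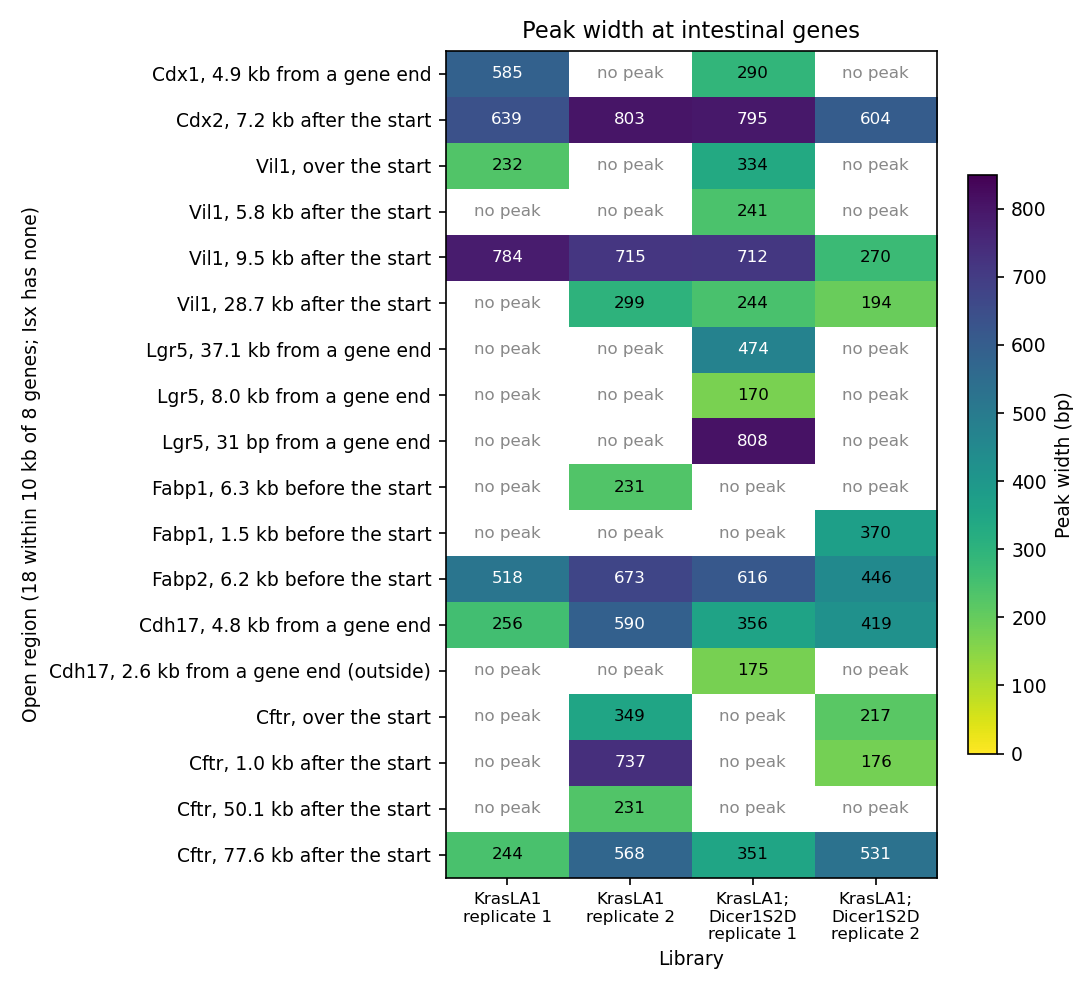
Peak width in bp (colour and number) in each of the 4 libraries (columns) for the 18 open regions at 8 intestinal genes (rows, with the distance of the region from the start site or, where the start was not matched, from the nearer gene end). The regions of Cdx2, Fabp2 and Vil1, Cdh17 and Cftr (1 each, inside the gene) have a peak in every library, and those of Lgr5 have peaks in KrasLA1;Dicer1S2D replicate 1 only.

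Of the 3 homeobox factors, Cdx2 had a region in every tumour, Cdx1 in the replicate 1 tumours and Isx in none. Cdx2 (gene ID 12591, chromosome 5, 147300900 to 147307249) had 1 region of 803 bp, from 147299291 to 147300093. It lay 807 bp beyond the finish of the gene, 7156 bp from the start. Its peak measured 639 and 803 bp in the KrasLA1 libraries, and 795 and 604 bp in the KrasLA1;Dicer1S2D libraries. The widths of the groups overlapped. The Cdx2 start itself had no peak within 2 kb in any library.

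Cdx1 (gene ID 12590, chromosome 18, 61018862 to 61036199) had 1 region inside the gene, from 61030674 to 61031258, 4941 bp from the nearer gene end. Its peak was 585 bp wide in KrasLA1 replicate 1 and 290 bp in KrasLA1;Dicer1S2D replicate 1, and neither replicate 2 library had a peak there. The call was therefore shared by the female tumours of both genotypes. With equal numbers of the widest peaks per library, it was found in KrasLA1 replicate 1 only. Isx (gene ID 71597, chromosome 8, 74873174 to 74893506) had 0 regions within 10 kb, and the region nearest to it in the series lay 87050 bp away. Its nearest protein-coding neighbour, Hmgxb4, was itself 100144 bp distant.

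Lgr5 (gene ID 14160, chromosome 10, 115450314 to 115587780) had peaks in a single library. KrasLA1;Dicer1S2D replicate 1 had 3 regions in the gene, and the other 3 libraries had 0. The first, of 474 bp, ran from 115550169 to 115550642, and the second, of 170 bp, from 115579637 to 115579806, where the gene A930009A15Rik overlaps Lgr5. The third, of 808 bp (115586942 to 115587749), was the widest of the 18 member regions and lay 31 bp from the end of the gene with the higher coordinate. The table of starts did not give which end of Lgr5 is its start. The library with these peaks was also the one with the most peaks, 50282, and 11.8% of all autosomal regions were called in it alone. With the widest 34767 peaks of each library, Lgr5 had 2 regions in this library and 0 in the other 3. The calls were thus seen in 1 of the 2 KrasLA1;Dicer1S2D tumours.

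Vil1 (gene ID 22349, chromosome 1, 74409384 to 74435560) had 4 regions, of which KrasLA1;Dicer1S2D replicate 1 had all 4 and every other library 2. The region over its start (74409145 to 74409478) covered nearly all of the promoter sequence shown. It was 232 bp wide in KrasLA1 replicate 1, reaching from 224 bases before the start to 7 after it. In KrasLA1;Dicer1S2D replicate 1 it was 334 bp wide and reached from 239 bases before to 94 after. Neither replicate 2 library had a peak over the Vil1 start.

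A second Vil1 region, inside the gene 9504 bp after the start (74418888 to 74419671), was called in every library. Its peak measured 784 and 715 bp in the KrasLA1 libraries, and 712 and 270 bp in the KrasLA1;Dicer1S2D libraries. Both KrasLA1 peaks were wider than both KrasLA1;Dicer1S2D peaks, by 3 bp at the closest pair. Of the 26402 autosomal regions called in all 4 libraries, 27.2% had this order of widths and 3.66% the reverse, and of the 5 such member regions 1 had it and 0 the reverse. A region of 241 bp at 5847 bp after the start was called in KrasLA1;Dicer1S2D replicate 1 only. The last, of 299 bp, lay 2572 bp beyond the gene and within the neighbour Usp37, a ubiquitin protease gene. It was called in all libraries except KrasLA1 replicate 1.

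The genes of the fatty acid binding proteins differed from each other. Fabp2 (gene ID 14079, chromosome 3, 122895072 to 122899506) had 1 region in every tumour, 6192 bp before the start (122888161 to 122888880). Its peak was 518 and 673 bp wide in the KrasLA1 libraries, and 616 and 446 bp in the KrasLA1;Dicer1S2D libraries. These widths overlapped between groups. Fabp1 (gene ID 14080, chromosome 6, 71199879 to 71205034) had 2 regions, each in 1 male tumour. A peak of 231 bp at 6296 bp before the start was called in KrasLA1 replicate 2, and a peak of 370 bp at 1549 bp before the start in KrasLA1;Dicer1S2D replicate 2. Neither gene had a peak over its promoter window.

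Cdh17 (gene ID 12557, chromosome 4, 11758157 to 11817905) had a region inside the gene in every library, from 11762983 to 11763572, 4826 bp from the end with the lower coordinate. Its peak measured 256 and 590 bp in the KrasLA1 libraries, and 356 and 419 bp in the KrasLA1;Dicer1S2D libraries. The KrasLA1;Dicer1S2D widths fell between those of the KrasLA1 tumours. A narrow region of 175 bp lay 2642 bp beyond the other end and was called in KrasLA1;Dicer1S2D replicate 1 only.

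Cftr (gene ID 12638, chromosome 6, 18170687 to 18322770) was called at its start in both male tumours and in neither female tumour. It had 4 regions, of which KrasLA1 replicate 2 had 4, KrasLA1;Dicer1S2D replicate 2 had 3, and each replicate 1 library had 1. The region over the start (18170540 to 18170888) was 349 bp wide in KrasLA1 replicate 2, from 147 bases before the start to 201 after it, and 217 bp wide in KrasLA1;Dicer1S2D replicate 2. The next, 960 bp after the start (18171647 to 18172383), was 737 and 176 bp wide in the same order. A region of 231 bp at 50123 bp after the start was called in KrasLA1 replicate 2 only. Deep inside the gene, 77553 bp after the start (18248240 to 18248807), every library had a peak. It measured 244 and 568 bp in the KrasLA1 libraries, and 351 and 531 bp in the KrasLA1;Dicer1S2D libraries. At this region as at the start, the male tumour of each genotype had the wider or the only peak.

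**Figure D2:**
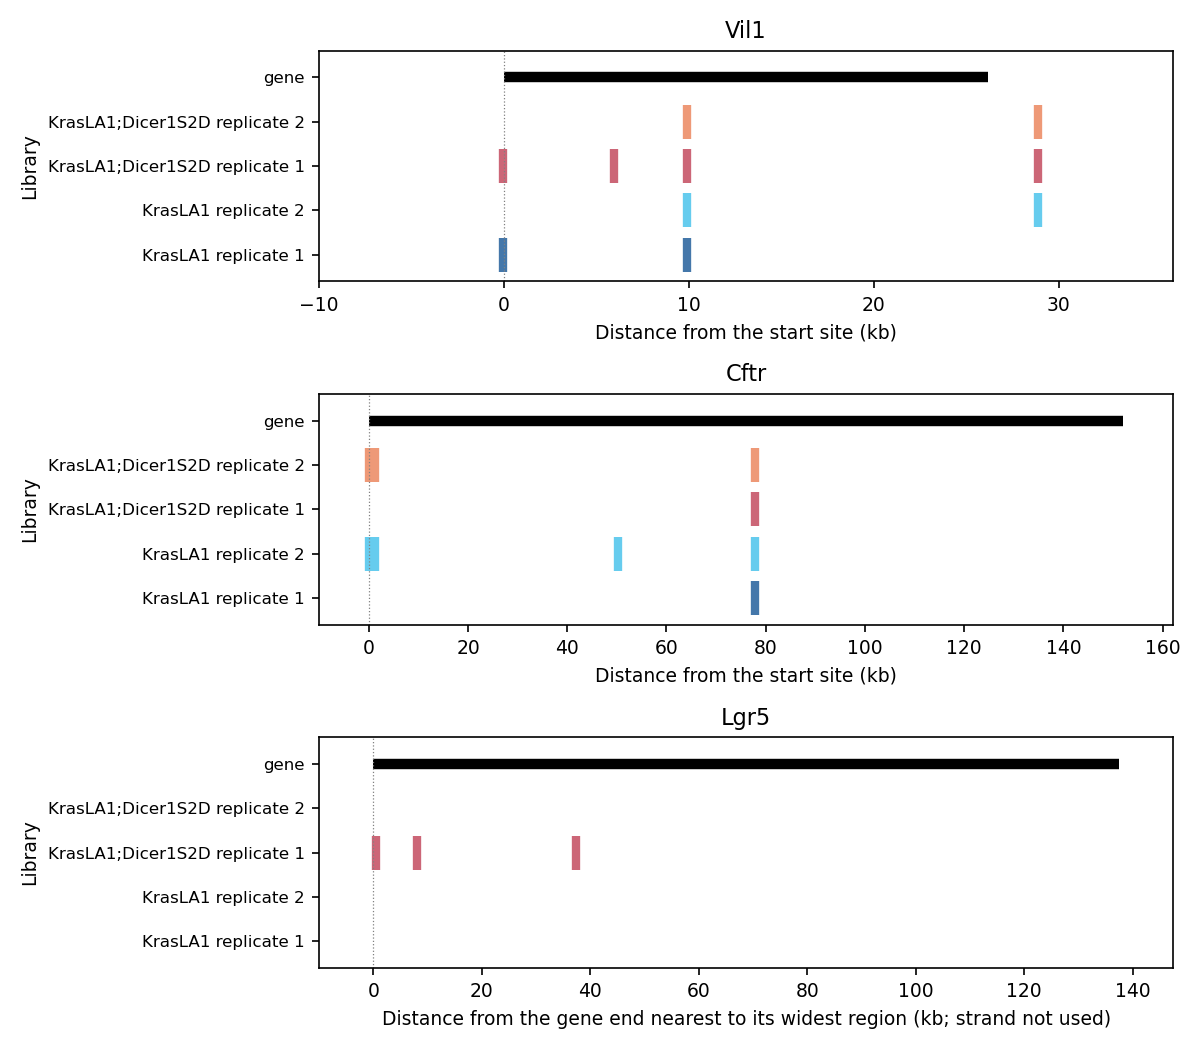
Positions of the called regions at Vil1, Cftr and Lgr5 in each library (rows), as distance in kb from the start site, or for Lgr5 from the gene end near its region of 808 bp. Coloured marks stand at the middle of each region and do not show its width, and the black bar is the gene. The start of Vil1 is marked in the replicate 1 libraries, the start of Cftr in the replicate 2 libraries, and Lgr5 in KrasLA1;Dicer1S2D replicate 1 only.

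Across the loci, 5 of the 18 regions were called in all 4 libraries, 1 in 3 libraries, 4 in 2 and 8 in 1. Of the 4 regions called in 2 libraries, 2 (Cdx1 and the Vil1 start) were in both replicate 1 tumours and 2 (at the Cftr start) in both replicate 2 tumours. Each of these patterns held 11.1% of the member regions, which is 2 regions. Among autosomal regions 6.61% were called in both replicate 1 libraries only and 2.31% in both replicate 2 libraries only. KrasLA1;Dicer1S2D replicate 1 alone held 5 of the 18 member regions (11.8% of autosomal regions), KrasLA1 replicate 2 alone 2 (8.91%), KrasLA1;Dicer1S2D replicate 2 alone 1 (1.18%) and KrasLA1 replicate 1 alone 0 (5.79%). The regions at Lgr5 share a gene, and those at Cftr also do, so they are not independent counts.

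Over all members, KrasLA1 replicates 1 and 2 had 7 and 10 of the 18 regions, and KrasLA1;Dicer1S2D replicates 1 and 2 had 13 and 9. These were 38.9%, 55.6%, 72.2% and 50% of the member regions, against 66%, 71.8%, 78.8% and 54.9% of autosomal regions in the same libraries. The highest share was in KrasLA1;Dicer1S2D replicate 1 in both sets. The group means were 8.5 ± 2.12 (SD, n = 2) and 11 ± 2.83 (SD, n = 2) regions, which overlapped (difference 2.5, p = 0.667 in an exact two-sided permutation test). This design cannot give a p below 0.333. Without KrasLA1;Dicer1S2D replicate 1, the library with the most peaks, the difference was 0.5 (exact permutation test, p = 1). With the widest 34767 peaks of each library it was 2, from 6 and 7 regions against 8 and 9 (exact permutation test, p = 0.333). This number is the whole peak list of KrasLA1;Dicer1S2D replicate 2, so its 9 regions were unfiltered and only the other libraries lost narrow peaks. The width limit thus differed between libraries, and the separation of the groups follows in part from it. Per 10000 peaks of the library, the KrasLA1 tumours had 1.68 and 2.24 member regions, and the KrasLA1;Dicer1S2D tumours had 2.59 each. The bases covered by peaks at the members were 3258 and 5196 in the KrasLA1 libraries, and 5566 and 3227 in the KrasLA1;Dicer1S2D libraries (exact two-sided permutation test, p = 1).

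**Figure D3:**
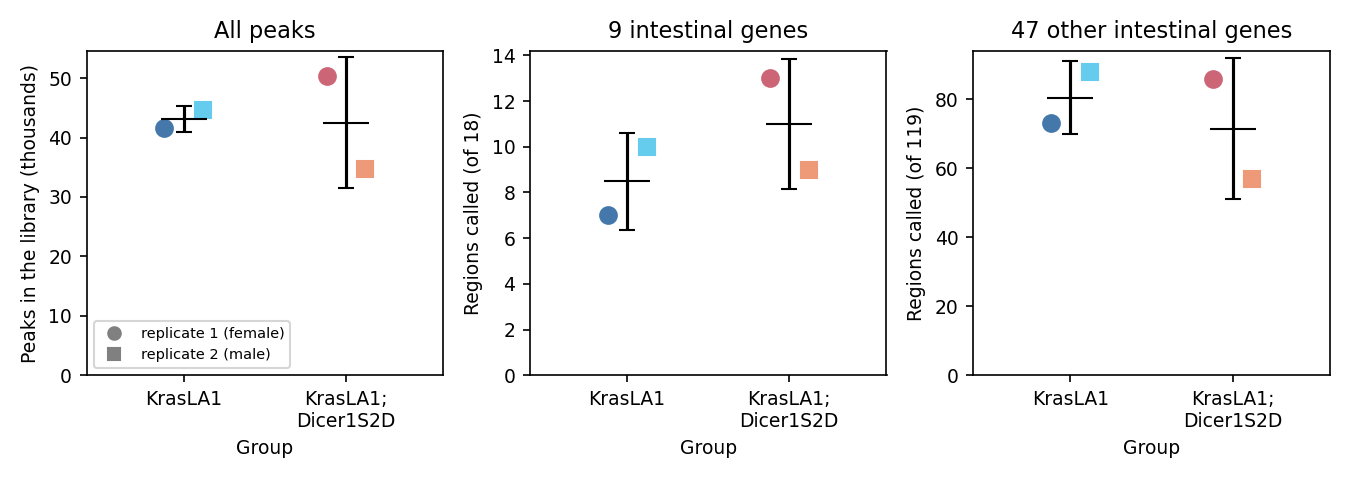
Number of peaks in each library (left), of regions called at the 9 intestinal genes (middle) and of regions called at 47 other intestinal genes (right), by group. Circles are replicate 1 and squares replicate 2, horizontal bars are group means, and error bars are SD (n = 2). In all 3 panels KrasLA1;Dicer1S2D replicate 1 lies above replicate 2 of its group, and in the KrasLA1 group replicate 2 lies above replicate 1.

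Starts of members were seldom called. A peak within 2 kb of a start (of either gene end for the 3 genes with no start in the table) was found in KrasLA1 replicate 1 at Vil1 and in KrasLA1 replicate 2 at Cftr. KrasLA1;Dicer1S2D replicate 1 had it at Vil1 and Lgr5, and KrasLA1;Dicer1S2D replicate 2 at Cftr and Fabp1. That is 1 and 1 against 2 and 2 genes, the groups did not overlap, and the exact permutation p of 0.333 is the smallest this design allows. Over all autosomal protein-coding genes, 57.8% and 59.4% had such a peak in the KrasLA1 libraries. In the KrasLA1;Dicer1S2D libraries it was 59.2% and 56.5%, and these shares overlapped between groups. The additional gene was a different one in each KrasLA1;Dicer1S2D tumour, and 0 members had such a peak in both tumours of a genotype and neither of the other. Of 20665 autosomal protein-coding genes, 0.102% had it in both KrasLA1;Dicer1S2D tumours only and 0.387% in both KrasLA1 tumours only. With the widest 34767 peaks of each library the counts were 0 and 1 against 2 and 2. That setting removed the Vil1 start peak of 232 bp from KrasLA1 replicate 1. The narrower Cftr start peak of 217 bp stayed in KrasLA1;Dicer1S2D replicate 2, which keeps all its peaks at this number. The larger difference therefore follows in part from the setting. Within 1 kb the counts over all peaks were 1 and 1 against 2 and 1 (exact permutation test, p = 1). No member had a start peak in all 4 libraries, compared with 53.8% of autosomal protein-coding genes, and 5 of 9 had it in 0 libraries, compared with 37.1%.

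The member regions open in every tumour lay away from starts. None of the 5 was within 2 kb of a start of any protein-coding gene (or of either end, for genes with no start in the table), while 50.8% of the 21274 regions near autosomal genes called in all 4 libraries were. Of the 8 member regions called in 1 library, 2 were within 2 kb of a start, against 14.2% of such regions near autosomal genes. Of the 4 called in 2 libraries it was 3, against 15.1%, and 2 of these 3 belong to Cftr. Over all libraries, 12 member regions overlapped the gene and 6 lay outside it.

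Member promoters were mostly poor in CG dinucleotides, and promoters of that kind seldom had a peak in these libraries. In the promoter window of 300 bases, the median number of CG dinucleotides was 14 over 20085 promoters and 4 over the 6 member promoters. Isx had 2, Fabp1 and Fabp2 had 3 each, Vil1 had 5, Cdx2 had 18 and Cftr had 31. Of 5526 promoters with 0 to 4 CG dinucleotides, 90.2% had a peak in 0 libraries, as Isx, Fabp1 and Fabp2 did. Of 2925 promoters with 5 to 9, it was 64.7%, and Vil1 had a peak in 2 libraries. Cdx2 was without a peak in a band of 10 to 19 where 24.9% of 4183 promoters were without one. Cftr had a peak in 2 libraries in a band of 30 or more where 79.8% of 3234 promoters had one in all 4.

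**Figure D4:**
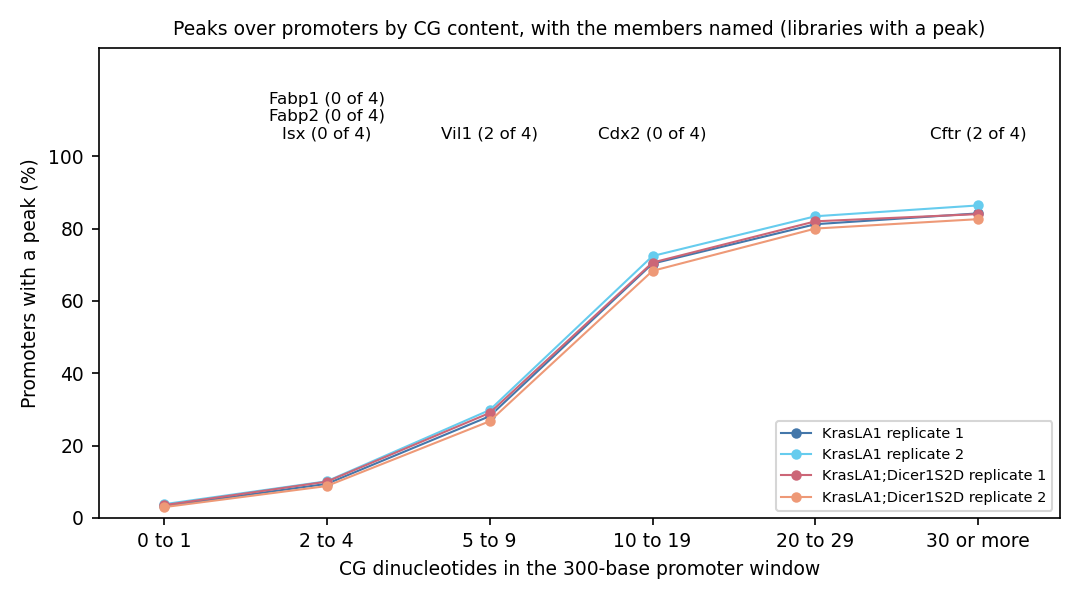
Percent of promoters of autosomal protein-coding genes with a peak over the 300-base window (vertical axis) in each library (coloured lines), by the number of CG dinucleotides in the window (horizontal axis). The 6 members with a matched promoter are written above their band with the number of libraries in which they had a peak. Fabp1, Fabp2 and Isx stand in a band where 8.79% to 10.1% of promoters had a peak, and Cftr in a band where 82.6% to 86.4% had one.

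Between 10 and 50 kb from the members there were 26 regions, of which 14 (53.8%) were called in all 4 libraries, against 43.5% of autosomal regions. A region 14.3 kb before Fabp1 was called in every library, as were a region 46.3 kb from Cdh17, which lay in the gene Gem. At 36.4 kb from Cdh17, a region of 910 bp was called in both replicate 1 libraries, at 759 and 910 bp, and in neither replicate 2 library. Of the 26 regions, 0 had peaks in the 2 KrasLA1 tumours alone, against 1.42% of autosomal regions. In the reverse direction there was 1, with peaks of 467 and 347 bp in the 2 KrasLA1;Dicer1S2D tumours, against 0.596% of autosomal regions. It lay 33.9 kb from Vil1, inside Slc11a1, a metal ion transporter gene of macrophages, and is nearer to that gene than to Vil1.

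Other genes of intestinal epithelium included loci with and loci without a called region, as did genes in general. All 47 genes of 4 further lists were matched, and 33 of them (70.2%) had a region, against 76.9% of autosomal protein-coding genes. The lists were transcription factors (8 genes), enterocyte and brush border genes (19), stem cell genes (7) and secretory genes (13). Regions called at these loci numbered 73 and 88 in the KrasLA1 libraries, and 86 and 57 in the KrasLA1;Dicer1S2D libraries, of 119 (exact two-sided permutation test, p = 0.667). The shares called were 61.3%, 73.9%, 72.3% and 47.9% in that order, against 66%, 71.8%, 78.8% and 54.9% of autosomal regions. All 8 transcription factors and all 7 stem cell genes had a region, as did 11 of 19 enterocyte and 7 of 13 secretory genes. Among brush border enzymes, Anpep (aminopeptidase N) had 4 regions and Treh (trehalase) had 2, while Sis (sucrase-isomaltase), Lct (lactase) and Alpi (intestinal alkaline phosphatase) had none. Among goblet cell genes, Agr2 had 3 regions, Zg16 and Spink4 had 2 each, Fcgbp had 1, and Muc2, Tff3 and Clca1 had none. These genes were named after their values were seen.

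Start peaks in all 4 libraries were found at 9 of the 47 genes (19.1%), against 53.8% of autosomal protein-coding genes. They included 3 of 8 transcription factors (37.5%), Prdm1, Nr1i2 and Klf4, and 4 of 7 stem cell genes (57.1%). Among these 4 were Ascl2, a Wnt-driven stem cell factor, and the ubiquitin ligase genes Rnf43 and Znrf3, which restrain Wnt signalling. Znrf3 had no start in the promoter table, so a peak at either gene end was counted. Slc15a1, the peptide transporter, was the 1 of 19 enterocyte genes, and Atoh1, the factor of secretory fate, the 1 of 13 secretory genes. Regions shared by all libraries included those at Prdm1 (6 regions) and Gata4 (4) among factors, and at Rnf43 (5) among stem cell genes. At Zg16, Slc15a1, Anpep and Cdhr5 it was 2 each.

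Of the 32 autosomal genes of these lists with a region, 0 had a region with peaks in the 2 KrasLA1;Dicer1S2D tumours alone, and 3 had one called in the 2 KrasLA1 tumours alone, against the 1.78% and 4.87% of all genes given above. At Slc5a1, the sodium-glucose transporter, the region (chromosome 5, 33104062 to 33104771) was 293 and 710 bp wide in KrasLA1 replicates 1 and 2. At Znrf3 (chromosome 11, 5346715 to 5347203) it was 258 and 489 bp. At Mttp, which loads lipid onto lipoproteins, it was 250 and 253 bp and lay outside the gene, within the neighbour Trmt10a. These 3 regions had no peak in either KrasLA1;Dicer1S2D library, and 0 of the 9 members had such a region. Elsewhere within 2 kb of the Slc5a1 start, KrasLA1;Dicer1S2D replicate 1 did have a peak, and replicate 2 of that group had none.

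Over 4 libraries, the genes with shares of called regions nearest to those of the 9 members together were Eepd1, 0610040J01Rik and Birc6, among 885 genes with 10 or more regions. Their mean absolute difference from the members was 4.72, 5.83 and 5.83 percentage points, and Cabin1 had the same value as the last. Eepd1 had 6 and 8 of 15 regions called in the KrasLA1 libraries, and 10 and 6 in the KrasLA1;Dicer1S2D libraries.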

How the data were processed

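Peaks of 4 ATAC-seq libraries were read from the authors' deposited table of 5 interval tracks in mm10, 1 per library and 1 of merged regions, per the file headers. It holds no counts or heights. MACS3 3.0.0, BWA 0.7.12 and deepTools 3.5.1 are listed in the submitters' processing notes. Not given in the sources used here are their settings, the peak threshold, any shift of reads and the read numbers, so a site below the threshold or in a shallower library is recorded as absent. Columns of other samples numbered 0. Signal tracks were not used here.

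Peaks sharing 1 bp or more were merged, which gave the authors' 61972 regions. Genes were taken from a RefSeq table for GRCm38.p6, and starts from a RefSeq promoter table that held 16457 of 20665 autosomal protein-coding genes. Exons and introns were not annotated. Coordinates are counted from 1. Group and replicate came from the labels. All 9 members are named. Of the other lists, every gene with a region called in both tumours of 1 genotype only was named, and up to 3 per list with the most shared regions, except that some items are not reported here. The members and lists were chosen with earlier results of these data known. Group means were compared with exact permutation tests over libraries, whose spread is that between these mice. In simulated peak lists, 200 of 200 planted regions of each direction were recovered among 60713. The planted peaks had nearly the same position in both libraries of a genotype. Their recovery therefore checks the merging and counting steps only, not whether a peak would be detected. Python 3.11.15, numpy 2.4.6 and matplotlib 3.10.9 were used. Alternatives covered merging, peak width and number, the windows, leaving out each library, and a replicate block.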

Additional observations from a re-analysis of the deposited data

Results flagged for a closer look

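Over all peaks, the difference between genotypes had opposite signs in the replicate 1 (female) and replicate 2 (male) tumours, with 1 library per genotype in each, and this contrast was not tested. Regions called at the 9 intestinal genes differed by 6 (KrasLA1;Dicer1S2D minus KrasLA1) in replicate 1 and by -1 in replicate 2. Bases of peaks at these genes differed by 2308 and -1969, and regions at the 47 other intestinal genes by 13 and -31, in the same order. The number of all peaks of the libraries differed by 8661 and -9887 in that order, so the signs at these loci were those of the peak totals. With the widest 34767 peaks of each library, the opposite signs were no longer seen for regions, which differed by 2 and 2 at the 9 genes and by -4 and -12 at the 47 others. This number is the whole peak list of KrasLA1;Dicer1S2D replicate 2, so in replicate 2 only the KrasLA1 library lost peaks. The change of sign at the 9 genes arose there, and the setting cannot show how equally deep libraries would differ. Bases of peaks kept opposite signs, at 1420 and -1208. Per 10000 peaks of the library, member regions were 2.59 against 1.68 in replicate 1 and 2.59 against 2.24 in replicate 2. Genes with a start peak differed by 1 in both over all peaks.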

How the results depend on the processing

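The difference in regions called at members stayed above 0 under every alternative run (0.5 to 4.5, with single libraries left out or otherwise), and all exact permutation tests gave p of 0.333 to 1. The difference in bases of peaks, 169.5 as reported, was -188 with peaks of at least 200 bp, -700.5 within 50 kb, and -1000 to 1339 with single libraries left out, where the replicate 1 library of KrasLA1 left out gave -799.5 and that of KrasLA1;Dicer1S2D gave -1000. The cause was not tested. At other intestinal loci the difference of -9 regions became 5.5 without KrasLA1;Dicer1S2D replicate 2, within a range of -23.5 to 5.5 over left-out libraries. Regions called only in KrasLA1;Dicer1S2D tumours at members numbered 1 within 50 kb (in Slc11a1), a pattern that 0.596% of autosomal regions had. Over left-out libraries they numbered 0 to 5, and those only in KrasLA1 tumours 0 to 2, because fewer libraries decide the call. The 5, seen without KrasLA1;Dicer1S2D replicate 2, were the 3 of Lgr5 and 1 each of Vil1 and Cdh17, and the 2, seen without KrasLA1 replicate 1, were 1 each of Fabp1 and Cftr. The same replicate numbers do not show that samples were paired. With a replicate block the differences were 2.5 regions, 169.5 bases, 1 gene with a start peak and -9 regions at other intestinal loci (exact permutation tests, p = 1, 1, 0.5 and 1, with 0.5 the smallest possible). Same-numbered libraries deviated together with a correlation of 0.148 over 60713 regions for calls and 0.12 over 26402 for log2 width. Depth is unknown, so an absent peak sets no limit on accessibility.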

Other observations

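Lgr5, with all regions in 1 tumour, was singled out after its values were seen. Of 8839 autosomal protein-coding genes with 3 or more regions, 7 had all of them in KrasLA1;Dicer1S2D replicate 1 only: Lgr5 (3 regions), Epb41l3 (7), Enpp2 (5), Reln (5), Col24a1 (3), Dcstamp (3) and Hsd17b3 (3). The corresponding numbers of genes were 4 for KrasLA1 replicate 1, 3 for KrasLA1 replicate 2 and 0 for KrasLA1;Dicer1S2D replicate 2. Enpp2 encodes autotaxin, which makes lysophosphatidic acid, and Reln encodes the secreted protein reelin. The Lgr5 region of 808 bp was the widest member region, and 21 of the 7189 regions called in that library only (0.292%) were at least as wide, and 139 of the 16827 called in any 1 library (0.826%).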
